A study of Bombus terrestris with 20 samples.

Results

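Vitellogenin (LOC100650436) was 1 gene among the 9464 listed in all 3 tissue tables of Bombus terrestris audax workers, and it was chosen by its identity as the gene of the yolk protein precursor. There were 10043 genes listed for brain, 9659 for fat body, 10087 for ovary, and 10661 for eggs. The files and the RefSeq gene table give vitellogenin by identifier only, and RefSeq lists 1 transcript for it.

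Vitellogenin is a large lipid-carrying glycoprotein. In egg-laying insects, it is made mainly in the fat body, the tissue that stores fat and has many of the roles of a liver. It is secreted into the hemolymph and taken up by growing oocytes through a receptor of the low-density lipoprotein receptor family, so that its protein reaches the egg although its mRNA is made elsewhere. Its synthesis is regulated by juvenile hormone in many insects, and in worker honeybees, Apis mellifera, vitellogenin has further been tied to division of labor and lifespan.

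The workers lived in queenright colonies that had passed the competition point, when workers begin to lay eggs, and their brain, fat body, and ovary were dissected for mRNA-seq. Ovary-active workers had ovaries that scored 4 to 6 and were 22 to 34 days old, and ovary-inactive workers had ovaries that scored 0 to 1 and were 24 to 32 days old. Each of the 18 tissue libraries, 3 per tissue and phenotype, was a pool of 7 workers, except for 1 pool of 14 ovary-inactive brains whose replicate number the sources do not give. A further 2 libraries were pools of 24 worker-laid eggs, at most 1 hour old, from small queenless groups of workers, and were sequenced by another provider. Replicates are therefore pools, and a p-value measures only the spread between these pools. Pools of the phenotypes were paired by worker age, but how the pools correspond to replicate numbers is not stated, and age-matched workers were mostly of different colonies. Another of the ovary-inactive brain pools came from colonies obtained separately from the rest, and its replicate number is likewise not stated. Colony was not a term in any fit, and its part in the results was not tested.

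The tissue libraries held the equivalent of 23118226 to 34419603 reads. The vitellogenin values rested on 48 to 1138902 reads per tissue library. One read was worth 0.770 to 1.39 normalized counts, so that counting error was small beside the spread between pools. The neuronal acetylcholine receptor subunit alpha-7, a neuron marker, had 66.9 to 386 normalized counts in brain and at most 10.1 in ovary, and it was not in the fat body table. Syntaxin-1A, also taken as a neuron marker, did not separate brain (9636 to 13770 normalized counts) from ovary-inactive ovary (12379 to 16671). Its values in ovary-active ovary (5237 to 5374) and fat body (1204 to 1763) were lower. Protein maelstrom 2, a germ line gene, had 3200 to 27193 normalized counts in ovary and at most 28.5 in brain and 26.4 in fat body. The germ line marker maternal protein tudor overlapped between brain (1919 to 6171 normalized counts) and ovary (3685 to 6776). Piwi-like protein Ago3, also a germ line marker, had 962 to 1179 in brain and 642 to 784 in fat body, against 2071 to 6059 in ovary. The sum of the 2 lipid storage droplet genes taken as fat body markers did not separate fat body from ovary. The sums were 262 to 369 ppm in fat body and 253 to 381 ppm in ovary, where ppm is a share of the library total. The 2 genes disagreed. LOC100643850 had 7573 to 10671 normalized counts in fat body and 4865 to 7003 in ovary. LOC100643974 had 171 to 203 in fat body and 1967 to 3307 in ovary.

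Vitellogenin mRNA was high in fat body, and it was higher there when the ovaries were active. In the 3 libraries of ovary-active workers, vitellogenin had 810085, 861953, and 1155626 normalized counts, the estimated counts scaled by the authors within a tissue. In the 3 libraries of ovary-inactive workers, it had 42961, 76156, and 31677 normalized counts. The phenotypes did not overlap, and the lowest ovary-active library was 10.6 times the highest ovary-inactive library. Vitellogenin took up 2.74, 2.97, and 3.85% of all normalized counts of the ovary-active libraries (3.19% ± 0.586, SD, n = 3), and 0.146, 0.258, and 0.112% of the ovary-inactive libraries (0.172% ± 0.0766, SD, n = 3). In pooled tissue, fewer cells of a type and less RNA per cell cannot be told apart.

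On the log2(normalized count + 1) scale, vitellogenin rose by 4.31 in fat body of ovary-active workers (SE 0.32, 95% interval 3.57 to 5.05, limma with Benjamini-Hochberg adjusted p = 0.00363). This made it an ovary-active worker DEG, as were 0.96% of the 8850 genes tested (85 genes). DEGs are here the genes called by limma in the direction named, whereas the study called its DEGs with DESeq2. Every ovary-active library was above every ovary-inactive library for 15.6% of genes. Vitellogenin had the third largest log2 fold change in favor of ovary-active workers in fat body and the second lowest p. It remained called at every setting tried, including those without any 1 library (log2 fold changes of 4.02 to 4.66, highest adjusted p = 0.0277). Leaving vitellogenin out of the library totals, since it takes up a different share in the phenotypes, gave a log2 fold change of 4.33.

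**Figure D1:**
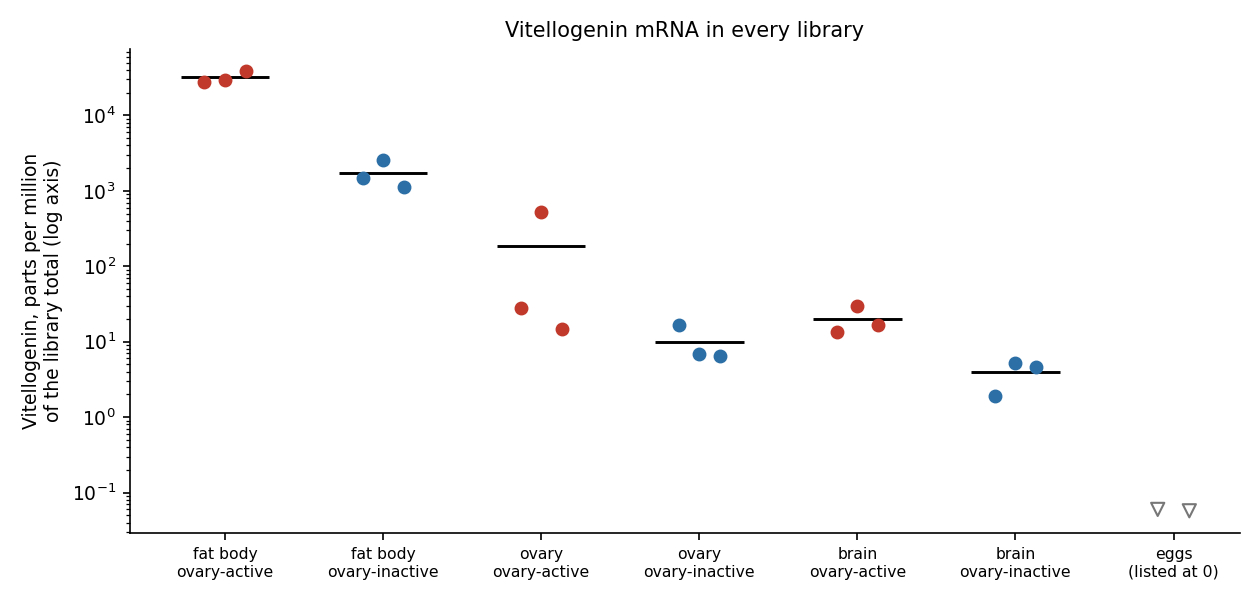
Vitellogenin mRNA as ppm of the library total, on a log axis, in each of the 18 tissue libraries (points) with the mean of each group (bars). Fat body stands above ovary and brain in every library, the ovary-active points (red) lie above the ovary-inactive points (blue) in fat body and brain but overlap them in ovary (14.6 against 16.7 ppm), and 1 ovary-active ovary library, at 519 ppm, stands far from the other 2. The open triangles mark the 3-count limits, 0.0598 and 0.0573 ppm, of the 2 egg libraries, where vitellogenin was listed at 0.

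LOC100652170 alone took a larger share of the normalized counts of ovary-active fat body than vitellogenin. Its mean share was 20.5% in the ovary-active and 20.7% in the ovary-inactive libraries (log2 fold change 0.01, adjusted p = 0.992, limma with Benjamini-Hochberg adjustment). These shares were not divided by transcript length, so they do not order the genes by number of transcripts. Its product name was not held.

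In ovary, all 3 ovary-active libraries had more vitellogenin than all 3 ovary-inactive libraries by normalized counts, but not by share of the library, and 1 of the ovary-active libraries held most of it. The ovary-active libraries had 792, 14895, and 473 normalized counts, and the ovary-inactive libraries had 395, 166, and 153. Replicate 2 of the ovary-active workers was 31.5 times replicate 3, and the lowest ovary-active library was 1.20 times the highest ovary-inactive library. By share of the library, the phenotypes overlapped, as ovary-active replicate 3 had 14.6 ppm and ovary-inactive replicate 1 had 16.7 ppm. Groups that separate by normalized counts were common in ovary (33.3% of the 9496 genes tested).

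The log2 fold change of vitellogenin in ovary was 3.03 (SE 1.16, 95% interval 0.34 to 5.73), which did not pass the threshold (adjusted p = 0.0570, limma with Benjamini-Hochberg adjustment). By the same test, 27.3% of the genes were ovary-active worker DEGs in ovary. Without ovary-active replicate 2, the log2 fold change was lower, at 1.50, and passed the threshold (SE 0.47, adjusted p = 0.0351), as the spread between the remaining libraries was smaller. Without ovary-active replicate 3, the log2 fold change was 3.99 (adjusted p = 0.0244). The mean of the ovary-active libraries was 22.6 times that of the ovary-inactive libraries with all libraries, and 2.66 times without replicate 2. A rise of vitellogenin mRNA in ovary was therefore called or not depending on the libraries, and its size depended on 1 library. Count tests were run where the values of a gene were whole reads, as they were for vitellogenin. By edgeR, it passed the threshold (log2 fold change 4.41, adjusted p = 0.0291). DESeq2 gave it no adjusted p with its Cook's cutoff for outlying values. With no such cutoff, a setting added after seeing the data, it passed (log2 fold change 4.43, DESeq2 adjusted p = 0.00295).

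**Figure D2:**
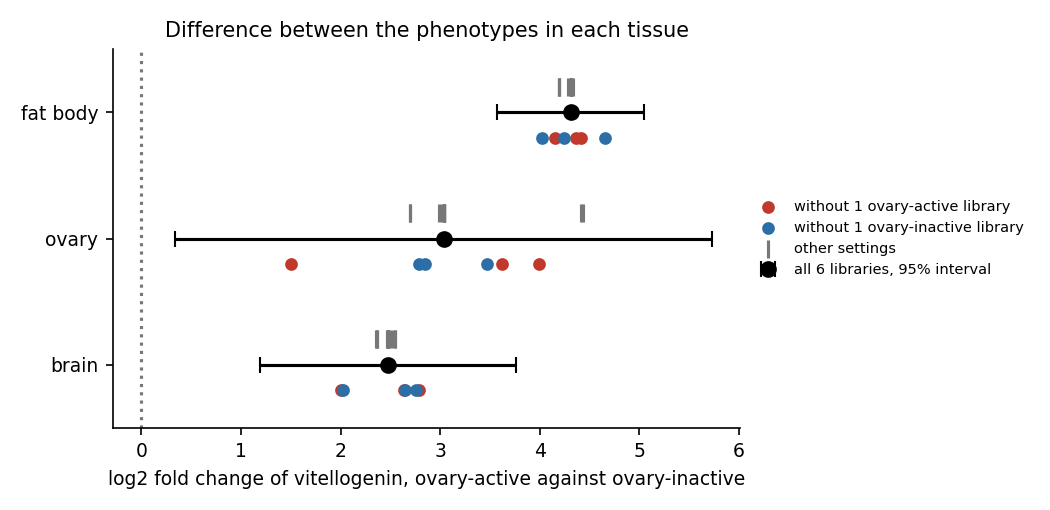
Log2 fold change of vitellogenin with ovary activation in each tissue, with its 95% interval from limma on all 6 libraries (black), the value without each library in turn (red and blue points), and the value at the other settings (gray ticks). The fat body values stay between 4.02 and 4.66, whereas the ovary value falls to 1.50 without ovary-active replicate 2.

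Some genes rich in fat body were also high in ovary-active ovary replicate 2. A set of 43 genes rich in fat body was chosen after the values were seen, by a share of at least 100 ppm in every fat body library and at least 50 times the highest share in ovary-inactive brain and ovary. The rule did not bound their shares in ovary-active ovary. Their ratios of ovary-active to ovary-inactive ovary ran from 0.181 (LOC100644841) to 15.9 (LOC100651254). In ovary-active replicate 2, 33 of these 43 genes were above both other ovary-active libraries. The median ratio of the 43 to the mean of the other 2 was 1.94 (quartiles 1.27 and 4.44, highest 11.8), against 24.6 for vitellogenin. Their summed share was 2096 ppm in replicate 2, between the 2251 and 2033 ppm of replicates 1 and 3. LOC100652170, the most abundant of them in fat body, had 1068 ppm in replicate 2, against 1771 and 1588. Without it, the sum was 1028 ppm in replicate 2, against 480 and 445. Over the 9185 genes of the 3 tables with a mean of at least 10 in ovary, the median ratio was 1.04, and 10 genes had a higher ratio than vitellogenin.

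Melittin (LOC100631070), the main peptide of bee venom, was 1 of these 10 genes. It had 156, 74700, and 360 normalized counts in the ovary-active libraries of ovary, a ratio of 314 by shares, and 367, 40451, and 9807 in the ovary-inactive libraries. Melittin was high in ovary-active replicate 2 and in ovary-inactive replicate 2. The latter library had 166 normalized counts of vitellogenin, and vitellogenin was also lower in fat body of ovary-inactive workers. In ovary-active replicate 2, vitellogenin was at 1.63% of its mean share in ovary-active fat body, within the range of the fat body-rich genes there (0.0249 to 6.91%, median 1.004%). In the other 2 ovary-active libraries, it was at 0.0865 and 0.0459% of that share, and 40 and 41 of the 43 genes were above it. In the 3 ovary-inactive ovary libraries, it was at 0.970, 0.403, and 0.380% of its mean share in ovary-inactive fat body, above the medians of these genes there (0.409, 0.277, and 0.238%). The rule that chose these genes bounded their shares in ovary-inactive brain and ovary, so these medians reflect the rule in part. The part of fat body or venom gland mRNA in the vitellogenin of replicate 2 was not tested.

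The ovary-inactive ovaries also differed from the ovary-active ones in the summed level of some markers. The 3 germ line markers summed to 930 to 1067 ppm in ovary-active and 490 to 749 in ovary-inactive ovaries. The 2 genes taken as muscle markers by product name alone summed to 115 to 163 and 343 to 476 ppm. The members of both lists disagreed. Among the germ line markers, protein maelstrom 2 rose by 2.45 on the log2 scale in ovary-active ovaries, piwi-like protein Ago3 fell by 1.17 (adjusted p = 7.94e-04, limma with Benjamini-Hochberg adjustment), and maternal protein tudor had a log2 fold change of 0.08. Of the genes taken as muscle markers, troponin I fell by 1.85. Myosin heavy chain 95F had a log2 fold change of 0.28 (adjusted p = 0.197, limma with Benjamini-Hochberg adjustment), and whether it marks muscle was not tested. The part of tissue makeup in the ovary values of vitellogenin was not tested.

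**Figure D3:**
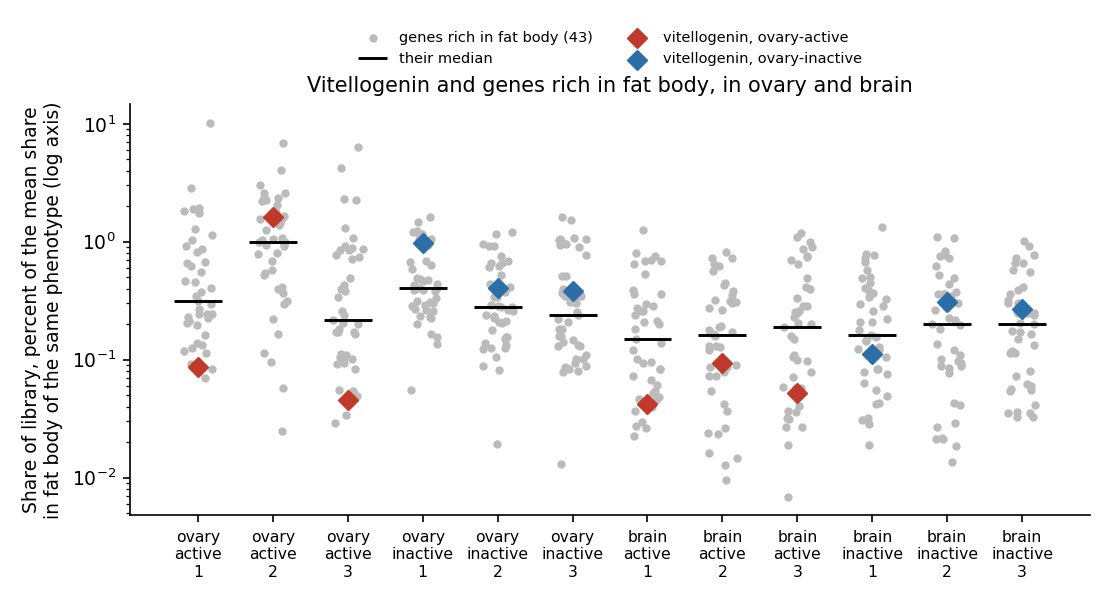
Share of vitellogenin (diamonds) and of 43 genes rich in fat body (gray points, bars at their median) in each ovary and brain library, as a percent of the mean share of the same gene in fat body of the same phenotype, on a log axis that leaves out values of 0. Vitellogenin is above the median of the fat body-rich genes in ovary-active ovary replicate 2 (1.63 against 1.004%), in all 3 ovary-inactive ovary libraries, and in 2 ovary-inactive brain libraries, and below it in the other 2 ovary-active ovary libraries, in all 3 ovary-active brain libraries, and in ovary-inactive brain replicate 1. The rule that chose the 43 genes bounded their values in the ovary-inactive libraries.

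In brain, vitellogenin was low but again separated the phenotypes. It had 324, 957, and 398 normalized counts in the ovary-active libraries and 47.3, 131, and 113 in the ovary-inactive libraries. These values rested on 332 to 812 and 48 to 151 reads. The lowest ovary-active library was 2.47 times the highest ovary-inactive library, and only 1.84% of the 9490 genes tested in brain had all ovary-active libraries above all ovary-inactive ones.

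The log2 fold change in brain was 2.47 (SE 0.53, 95% interval 1.19 to 3.76), the fourth largest in favor of ovary-active workers. It did not pass the threshold over all genes (unadjusted p = 0.00299, adjusted p = 0.9999, limma with Benjamini-Hochberg adjustment), and 0.0211% of genes (2 genes) were ovary-active worker DEGs. The call depended on the scaling and the test: scaled to library totals, limma gave a log2 fold change of 2.37 with an adjusted p = 0.0304 (4 genes called), and DESeq2 on the whole-read genes gave 2.54 with an adjusted p = 6.35e-04 (6 genes called), while edgeR on the same genes gave 2.52 with an adjusted p = 0.9996.

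The ratio of the mean share in ovary-active brain to that in ovary-inactive brain had a median of 0.819 for the 43 genes rich in fat body (highest 1.33). For vitellogenin, it was 5.05. In fat body, the ratios of these genes were 0.582 to 1.95, against 18.5 for vitellogenin. As a percent of fat body of the same phenotype, vitellogenin was at 0.0421, 0.0930, and 0.0523% in ovary-active brain. The medians of these genes there were 0.151, 0.161, and 0.190%. The rule that chose the genes bounded their shares in ovary-inactive brain. The part of fat body mRNA in the brain values of vitellogenin was not tested. Melittin had 13.7, 126, and 13.2 normalized counts in the ovary-active brain libraries, and replicate 2 was also the brain library with the most vitellogenin. Without that library, the vitellogenin log2 fold change in brain was 2.00.

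Melittin varied in fat body, too. It had 6921, 8693, and 6915 normalized counts in the ovary-active libraries and 20.1, 10331, and 2.59 in the ovary-inactive libraries. Ovary-inactive replicate 2 had the most melittin of the 6 fat body libraries and the most vitellogenin of the ovary-inactive ones, but its vitellogenin was still below every ovary-active library. Without that library, the vitellogenin log2 fold change in fat body was 4.66 (adjusted p = 0.00144, limma with Benjamini-Hochberg adjustment).

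By mean share of the library, the order of the groups was ovary-active fat body (31891 ± 5860 ppm, SD, n = 3), ovary-inactive fat body (1721 ± 766), ovary-active ovary (187 ± 288), ovary-active brain (19.9 ± 8.59), ovary-inactive ovary (10.1 ± 5.75), and ovary-inactive brain (3.95 ± 1.80). Ovary-active ovary overlapped ovary-active brain, and ovary-active brain overlapped ovary-inactive ovary. The other neighbors in this order did not overlap. The tables of the tissues were normalized separately, so these levels are set side by side and were not tested.

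Relative to fat body of the same phenotype, the mean share of vitellogenin was 0.587% in ovary-active and 0.584% in ovary-inactive ovary, and 0.0625% in ovary-active and 0.229% in ovary-inactive brain. The ovary figure for ovary-active workers rests on replicate 2. Even in ovary-inactive workers, whose fat body had the lower level, vitellogenin was 171 times as high in fat body as in ovary and 436 times as high as in brain.

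Whether the effect of ovary activation on vitellogenin differed between tissues was tested as the interaction of tissue and phenotype over 12 libraries. The log2 fold change was larger in fat body than in brain by 1.84 (95% interval 0.37 to 3.30, adjusted p = 0.411, limma with Benjamini-Hochberg adjustment), a comparison in which 0.277% of genes passed. It was larger in fat body than in ovary by 1.27 (95% interval -1.72 to 4.26, adjusted p = 0.488), against 38.7% of genes passing. Without ovary-active ovary replicate 2, that difference was 2.81 and passed the threshold (adjusted p = 0.00456). Between ovary and brain, the difference was 0.56 (95% interval -2.67 to 3.79, adjusted p = 0.776), against 43.9% of genes passing, and it was -0.97 without the same library. Fat body and ovary pools were described with the same numbers of workers and the same ages, and a fit that treats their libraries as independent takes no account of shared workers.

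In worker-laid eggs, vitellogenin was listed at 0 in both libraries. The egg libraries summed to 50166010 and 52324103 estimated counts, so that 3 counts would be a share of 0.0598 and 0.0573 ppm. Of the 10661 genes of the egg table, 387 were at 0 in both libraries, and 53 of these were in all 3 tissue tables. Vitellogenin had the highest tissue share of the 53. Of 3846 genes with at least 20 ppm in all 18 tissue libraries, 0 were at 0 in egg replicate 1, 9 in replicate 2, and 0 in both, but an exact 0 can also be a failed estimate. Vitellogenin was not among these 3846 genes, as it had 1.91 ppm in ovary-inactive brain replicate 1. They are therefore not a matched background for it. The egg libraries were not normalized with the tissues, and no fold was taken between them.

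A second gene annotated for this family, the vitellogenin-like precursor LOC100643258, had another distribution over the tissues. In ovary, it had 1155, 1854, and 1763 normalized counts in ovary-active and 115, 371, and 83.9 in ovary-inactive libraries. The phenotypes did not overlap, and it rose by 3.34 on the log2 scale (SE 0.51, adjusted p = 0.00155, limma with Benjamini-Hochberg adjustment). Its 3 ovary-active values were near each other, unlike those of vitellogenin in the same libraries. In fat body, it had 0 to 6.69 normalized counts and was too low to test, and in brain it had 66.1 ± 26.7 in ovary-active and 44.5 ± 4.76 in ovary-inactive libraries (SD, n = 3; log2 fold change 0.50, adjusted p = 0.9999). In eggs, it was listed at 2353 and 3053 estimated counts, where vitellogenin was at 0.

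The gene next to vitellogenin in the RefSeq order of genes (assembly iyBomTerr1.2), LOC100650318, was measured in all 3 tissues, and its product name was not held. In ovary, it had 3835, 2897, and 2928 normalized counts in ovary-active and 92.5, 382, and 301 in ovary-inactive libraries. It rose by 3.85 on the log2 scale in ovary (SE 0.48, adjusted p = 6.87e-04) and by 1.337 in fat body (SE 0.23, adjusted p = 0.0287, limma with Benjamini-Hochberg adjustment). In brain, where it had 15720 to 28569 normalized counts, its log2 fold change was -0.19 (adjusted p = 0.9999). By share of the library, set side by side, it had 522 to 1154 ppm in brain and at most 134 ppm in the other tissues, whereas vitellogenin had its highest shares in fat body. Within 3 places on either side of vitellogenin, glutamyl aminopeptidase (LOC100643156) fell by 1.93 on the log2 scale in ovary (adjusted p = 0.00719), LOC100650196 was called in no tissue, and the other genes were not tested in any tissue.

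**Figure D4:**
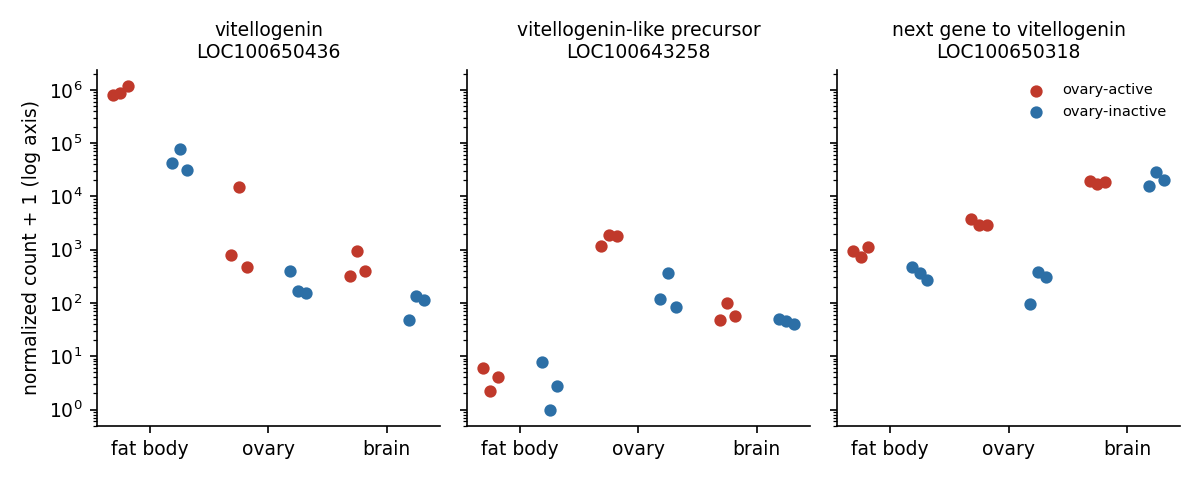
Normalized counts plus 1, on a log axis, of vitellogenin, the vitellogenin-like precursor, and the gene next to vitellogenin in fat body, ovary, and brain of ovary-active (red) and ovary-inactive (blue) workers, 3 libraries each. Vitellogenin is highest in fat body, the vitellogenin-like precursor in ovary-active ovary, and LOC100650318 in brain.

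The genes with a role in yolk uptake or processing for which a product name was held did not move as a group. In fat body, where 2.93% of all genes were called in either direction and 1.97% were ovary-inactive worker DEGs, 0 of 5 rose and 1 fell in ovary-active workers, the very low-density lipoprotein receptor (LOC100643157), a lipoprotein uptake receptor, by 0.64 on the log2 scale (adjusted p = 0.0228, limma with Benjamini-Hochberg adjustment). In ovary, where 27.3% of all genes rose and 26.7% fell, 1 of 5 rose and 1 fell. The gene that rose was AP-2 complex subunit sigma (LOC100644109), part of the adaptor of clathrin-coated pits (log2 fold change 0.65, adjusted p = 0.00909). The very low-density lipoprotein receptor fell there by 1.37 (adjusted p = 0.0378). The median log2 fold changes of the list were -0.12 in fat body and -0.02 in ovary, against 0.00 and 0.02 over all genes. At an unadjusted p under 0.05 in fat body, 2 of the 5 were higher and 2 lower, and of the 2 with whole reads edgeR called 0 and DESeq2 called 1 as higher. A further lipid transfer protein, the microsomal triglyceride transfer protein large subunit (LOC100643951), which loads lipid onto lipoproteins, had log2 fold changes of -0.11 in fat body and 0.53 in ovary and was not called.

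Genes of juvenile hormone and ecdysone signaling, the hormones that regulate vitellogenin in many insects, moved little in fat body, where vitellogenin rose. In fat body, 0 of 6 rose and 1 fell, farnesol dehydrogenase (LOC100644832). It was taken as a gene of juvenile hormone synthesis by product name alone, and whether it has that role in these tissues was not tested. Its mean normalized counts were 5081 in ovary-active and 6831 in ovary-inactive libraries (log2 fold change -0.43, adjusted p = 0.0232, limma with Benjamini-Hochberg adjustment). Kr-h1, a transcription factor induced by juvenile hormone, had 550, 519, and 638 normalized counts in ovary-active and 641, 615, and 693 in ovary-inactive fat body (log2 fold change -0.19, adjusted p = 0.283). The list median in fat body was -0.29, against 0.00 over all genes. At an unadjusted p under 0.05, 0 of the 6 were higher and 2 lower in fat body, and of the 4 with whole reads edgeR and DESeq2 each called 0 as higher and 1 as lower.

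In ovary, where 53.9% of all genes were called in either direction, all 6 genes of this list were called, 3 in each direction. The nuclear hormone receptor HR3 (LOC100643231) rose by 5.24 on the log2 scale, from 3.18 to 31.1 normalized counts in the ovary-inactive libraries to 369 to 537 in the ovary-active libraries. The ecdysteroid-regulated 16 kDa protein (LOC100643802) rose by 4.34 and farnesol dehydrogenase by 1.10. The ecdysone response gene broad (LOC100643256) fell by 2.16, the nuclear hormone receptor E75 (LOC100644185) by 1.03, and Kr-h1 by 0.76 (adjusted p = 0.0329, limma with Benjamini-Hochberg adjustment). Methoprene-tolerant, the juvenile hormone receptor, and the vitellogenin receptor were not among the product names held and were not analysed here.

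Of the 10 genes of insulin and TOR signaling, which tie nutrition to reproduction, 1 rose and 2 fell in fat body, against 0.96% and 1.97% of all genes. Of the 4 with whole reads there, edgeR called 0 and DESeq2 called 1 as higher, and both called 0 as lower. The scaffold protein LAMTOR2 (LOC100643005) rose by 0.38 on the log2 scale (adjusted p = 0.0461). Insulin receptor substrate 1 (LOC100644779), the adaptor below the insulin receptor, fell by 0.88 (adjusted p = 0.0221), and forkhead box protein O (LOC100643217), a transcription factor held in check by insulin signaling, fell by 0.74 (adjusted p = 0.0255, limma with Benjamini-Hochberg adjustment). In ovary, where 27.3% of all genes rose and 26.7% fell, 3-phosphoinositide-dependent protein kinase 1 (LOC100644761) rose by 0.74 and 6 genes fell, of which insulin receptor substrate 1 fell by 2.13 and forkhead box protein O fell by 0.91. The list medians were -0.18 in fat body and -0.48 in ovary. In brain, 0 of the 23 genes of the lists of lipid transfer, yolk uptake, hormone, and insulin and TOR genes were called by limma, 0 had an unadjusted p under 0.05, and edgeR and DESeq2 called 0 of the 11 with whole reads.

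**Figure D5:**
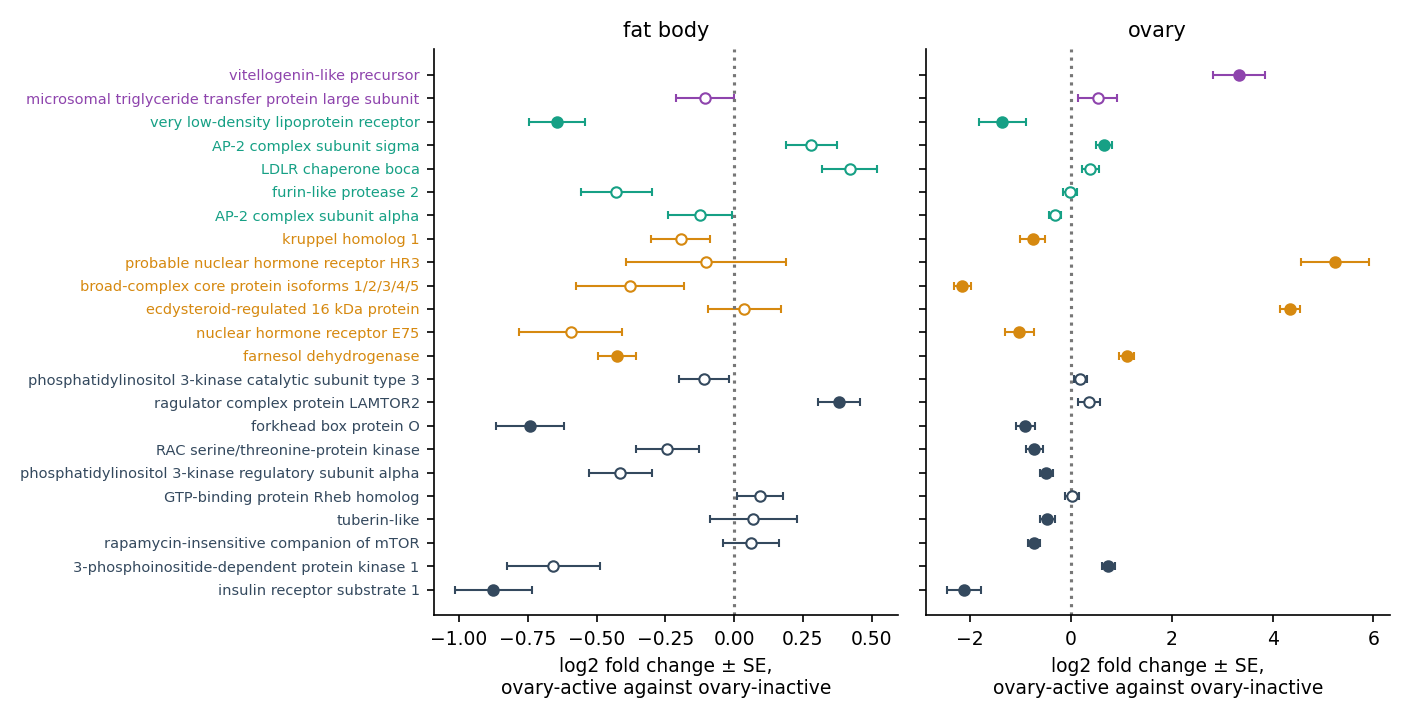
Log2 fold change between ovary-active and ovary-inactive workers, with its standard error, of genes of lipid transfer (purple), yolk uptake (green), juvenile hormone and ecdysone signaling (orange), and insulin and TOR signaling (dark blue) in fat body and ovary, each panel with its own axis. Filled points passed an adjusted p of 0.05 and open points did not. The fat body changes lie between -0.88 and 0.42, whereas vitellogenin rose by 4.31 there.

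Across the 18 tissue libraries and 9343 genes, the genes whose log2(ppm + 1) values followed vitellogenin most closely were LOC100651307 (Pearson r = 0.95), LOC100648843 (0.95), LOC100649831 (0.95), LOC110119748 (0.94), and LOC100650592 (0.94). These correlations are a description over libraries that share tissues, and they follow mostly the difference between fat body and the other tissues. LOC100649831 had a mean of 1234 ppm in ovary-active and 632 in ovary-inactive fat body, and at most 7.13 in any ovary or brain library. Only LOC100650592 of the 5 was called in fat body, with a log2 fold change of 0.46 (adjusted p = 0.0493, limma with Benjamini-Hochberg adjustment), far below the 4.31 of vitellogenin. By Spearman correlation, 0 of these 5 genes were among the 5 most like vitellogenin, and over the 12 libraries of fat body and ovary 2 of the 5 were.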

How the data were processed

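Messenger RNA from brain, fat body, and ovary (18 libraries) and from eggs (2 libraries) was sequenced by the authors on stranded libraries. Per the labels and the methods, reads were pseudoaligned to the Bter_1.0 transcriptome with Kallisto 0.46.1 and processed in R 4.1.3 with DESeq2 1.34.0. The tissue signal values deposited by the authors are normalized counts, estimated counts scaled within a tissue. The authors deposited the egg values in the form of estimated (expected) counts scaled from TPM and not normalized. About 60% of tissue values were whole multiples of a library constant (59.98 to 60.98%, and 100% in ovary-inactive brain replicate 3, within 0.02 reads), vitellogenin among them in all 18 libraries.

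Within each tissue, limma 3.58.1 in R 4.3.3 was fitted on log2(normalized count + 1) of genes with a mean of at least 10, with a mean-variance trend, Benjamini-Hochberg adjustment over all genes, and a threshold of 0.05. The unit called for limma in place of a count test. Tissue by phenotype interactions were fitted over 12 libraries. On whole-read genes (5373 for brain, 4986 for fat body, 5368 for ovary), edgeR 4.0.16 and DESeq2 1.42.0 were tried. The tests were tried on simulated data. Alternatives were other scalings, pseudocounts, filters, a replicate block, 1 joint fit, and leaving out each library. Intervals of 95% are from limma.

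Named genes were vitellogenin, genes annotated as vitellogenin-like, list members past the threshold (at most 4 per list and tissue) and Kr-h1, the 5 genes most like vitellogenin, and genes with a larger share in ovary-active fat body. Melittin, the fat body-rich genes, and neighboring genes were added after the values were seen. The gene and the lists were chosen with earlier results of these data known. Product names were held for 2219 genes, so the lists are partial. Figures were made with Python 3.11.15 and matplotlib 3.10.9. No sequence or coordinate is given, as the reference used here is of another assembly and holds gene names only.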

Additional observations from a re-analysis of the deposited data

How the results depend on the processing

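The direction of vitellogenin in fat body, ovary, and brain was the same at every setting tried, and the fat body rise kept its call at all of them (log2 fold changes of 4.19 to 4.33 with all libraries and 4.02 to 4.66 without 1 library). In brain, the call appeared when values were scaled to library totals (2.37, adjusted p = 0.0304, with vitellogenin in or out of the total) and in DESeq2 with or without the Cook's cutoff (2.54, adjusted p = 6.35e-04 and 6.40e-04). In ovary, it appeared in 1 fit over all 18 libraries (3.03, adjusted p = 0.00876), in edgeR (4.41, adjusted p = 0.0291), and in DESeq2 with no Cook's cutoff (4.43, adjusted p = 0.00295), an alternative added after seeing the data, since DESeq2 gave no adjusted p with the cutoff. The cause of these differences was not tested. Leaving out 1 library gave log2 fold changes of 2.00 to 2.78 in brain (adjusted p of 0.696 or more) and 1.50 to 3.99 in ovary (called without ovary-active replicate 2 or 3). The interaction values without 1 library ran from 0.32 to 2.81 (fat body against ovary, called only without ovary-active ovary replicate 2), 1.53 to 2.31 (fat body against brain), and -0.97 to 1.51 (ovary against brain, negative only without ovary-active ovary replicate 2), and none of the other interaction settings changed a call. A lone pair left in a group is assumed to vary like the other groups. The numbers of genes called by limma in fat body, 259, ran from 52 with no variance trend and 63 with a replicate block to 441 scaled to library totals with all libraries, and with 1 library left out it was 47, 41, and 397 (ovary-active replicates 1, 2, and 3) and 183, 75, and 527 (ovary-inactive replicates 1, 2, and 3). On 4986 whole-read genes, edgeR called 98 and DESeq2 472. In brain, 2 genes were called in the fit reported, 4 when scaled to totals, 6 by DESeq2, and 2 by edgeR, but 0 with a mean of at least 100, with a replicate block, and without any 1 library. In ovary, limma called 3846 to 5890 genes over its settings (5123 in the fit reported), and on 5368 whole-read genes edgeR called 2805 and DESeq2 with no Cook's cutoff 3018.

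With a replicate block, the adjusted p of vitellogenin was 0.0211 in fat body, 0.0648 in ovary, and 0.9999 in brain, and those of the interactions were 0.499, 0.406, and 0.762, which changed no call. Pools were paired by age in the study, but the replicate numbers could not be matched to those pairs, and same-numbered libraries did not deviate together: correlations of same-numbered libraries ran from -0.24 to 0.25, and not every library correlated best with its own number. The genes most like vitellogenin depended on the measure: 0 of 5 were shared with the Spearman order and 2 of 5 with the order over fat body and ovary. The median ratio of the fat body-rich genes in ovary-active ovary replicate 2 was 1.79 with a rule of 20 times (67 genes) and 1.67 with 100 times (26 genes), added after seeing the data. With 3 pools per group, the spread between pools, not read depth, limits the precision in fat body and ovary, and in brain the lowest library held 48 vitellogenin reads.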
